A study of Mus musculus with 9 samples.

Results

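The IFIT, IFITM, Mx and viperin effectors are antiviral genes whose transcription is induced by interferon. The genes described here are Ifit1, Ifit2, Ifit3, Ifitm2, Ifitm3, Ifitm6, Mx1, Mx2, Rsad2 and Bst2. They were chosen by gene name, after the changes of interferon-stimulated genes in the 3 comparisons of this experiment were already known, so that the values below are a description of these genes and not an independent test of their direction. Of the 10 members, 9 have a line in the deposited table of 16921 genes. Mx1 has no line there and was not analysed here. Of these 9 members, 7 had a mean level of at least 10 and were tested, as were 10103 genes of the whole table. Ifit3 and Mx2 lie below that level and are given by their values only.

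RiboSeq, the sequencing of ribosome-protected mRNA fragments (footprints), was performed in immortalized mouse bone marrow-derived macrophages (BMDMs) that lack their own TTP. TTP, the product of Zfp36, is an RNA-binding protein that binds AU-rich elements in 3′UTRs and promotes the decay of these mRNAs, and the kinase MK2 phosphorylates and inactivates it. The cells were transduced with a retroviral vector that expressed GFP (also labelled EV), GFP-TTP or GFP-TTP-AA from a doxycycline-inducible promoter, and TTP-AA is a mutant that MK2 cannot phosphorylate. All 9 libraries, 3 per condition with the replicate numbers 1, 2 and 3, came from cells that received 1 μg/ml doxycycline for 6 h and 1 μg/ml LPS for 1 h. Unstimulated cells were not analysed here, so that no value below is a response to LPS. Each condition was 1 transduced line, sorted for GFP by the study, and the 3 lines are called GFP, TTP and TTP-AA macrophages below. The effect of the construct and a difference between lines cannot be told apart. The members' level was compared between TTP and GFP, between TTP-AA and GFP, and lastly between TTP-AA and TTP. These comparisons ask how far the members' footprints differ with TTP and with its mutant. They do not separate translation from the amount of mRNA.

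LPS acts through TLR4, whose adaptor TRIF activates IRF3 and thereby Ifnb1. Secreted interferon β then binds the receptor chains IFNAR1 and IFNAR2, and the signal reaches genes that carry interferon-stimulated response elements (ISREs) in their promoters. IRF3 and IRF1 bind related elements. Several IFIT genes and Rsad2 can be induced by IRF3 without interferon, so that they are among the early genes of this response. IFIT proteins bind viral RNA, IFITM proteins restrict the fusion of viruses with cell membranes, Mx proteins are dynamin-like GTPases, viperin (Rsad2) makes a chain-terminating nucleotide, and tetherin (Bst2) holds budding virions at the cell surface.

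The members lie in a few clusters of the mouse genome (GRCm38, GENCODE vM21). Ifit2 (chr19:34550694-34576419), Ifit3 (chr19:34583531-34588731) and Ifit1 (chr19:34640871-34650009) follow each other on the plus strand. Ifitm2 (chr7:140954837-140955987), Ifitm3 (chr7:141009586-141010770) and Ifitm6 (chr7:141015699-141017924) lie on the minus strand, and Ifitm6 begins its annotated range 4929 bases beyond that of Ifitm3. Mx1 (chr16:97447035-97462907, minus strand) and Mx2 (chr16:97535308-97560900, plus strand) are neighbours. Rsad2 (chr12:26442746-26456452) and Bst2 (chr8:71534255-71537456) stand alone on the minus strand. Mx2 is annotated as a polymorphic pseudogene and the other members as protein-coding genes.

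The promoters are shown because an ISRE is an element through which many interferon-stimulated genes are known to be induced. Whether each member is induced through an ISRE was not tested. The core GAAANNGAAA was searched on both strands, so that TTTCNNTTTC counts as well, in the RefSeq promoters of GRCm38.p6 (250 bases before to 50 bases after the start). It is in 3.44% of 32851 promoters. Of the 8 members with a promoter in that table, 6 hold the core, and neighbouring cores can share bases. The core is not particular to the members. It is in 11 of 18 promoters of interferon ligands and receptors and 13 of 31 of other interferon-stimulated effectors. It is also in 3 of 7 of IFIT and IFITM relatives and 2 of 12 of interferon signalling genes. The following stretches are printed 5′ to 3′ on the strand of the gene, with the core in capitals.
Ifit1, chr19:34640785-34640814, plus strand: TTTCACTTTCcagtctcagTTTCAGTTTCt
Ifit3, chr19:34583363-34583392, plus strand: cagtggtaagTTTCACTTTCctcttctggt
Ifit3, chr19:34583397-34583426, plus strand: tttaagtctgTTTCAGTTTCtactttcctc
Rsad2, chr12:26456553-26456582, minus strand: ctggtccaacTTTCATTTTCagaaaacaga
Bst2, chr8:71537580-71537609, minus strand: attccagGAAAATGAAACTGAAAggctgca
Ifitm2, chr7:140955988-140956017, minus strand: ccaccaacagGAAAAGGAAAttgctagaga
Ifitm3, chr7:141010714-141010743, minus strand: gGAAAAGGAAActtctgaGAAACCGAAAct
The cores of Ifit1 and Ifit3 read TTTCACTTTC and TTTCAGTTTC in both genes, at bases -104 to -76 of Ifit1 and at bases -156 to -147 and -122 to -113 of Ifit3. Those of Ifitm3 lie behind the start, at bases 3 to 29. The windows of Ifit2 and Ifitm6 do not hold these letters, which says nothing on the binding of a factor. Ifitm6, whose level differed most from GFP, is shown with the 250 bases before its RefSeq start (chr7:141016893-141017142, minus strand), with no core to mark. These bases lie within the annotated range of Ifitm6 given above. The bases before the start of that range were not searched for this gene.
Ifitm6: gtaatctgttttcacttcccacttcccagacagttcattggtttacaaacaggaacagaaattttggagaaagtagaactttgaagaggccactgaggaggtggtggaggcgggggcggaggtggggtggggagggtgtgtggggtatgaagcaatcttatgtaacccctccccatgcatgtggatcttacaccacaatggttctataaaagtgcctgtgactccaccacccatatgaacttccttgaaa

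The 3′UTRs are shown because TTP binds AU-rich elements there. The pentamer ATTTA is in the 3′UTR of 67.0% of 9862 kept genes and the heptamer TATTTAT in 27.8%. In the principal transcripts, 8 of the 10 members hold the pentamer and only Ifit1 and Mx1 the heptamer. The 3′UTR of Rsad2, of 2660 bases, holds 2 pentamers, that of Ifitm3, of 139 bases, holds 1, and that of Ifitm6, of 298 bases, holds 1. Ifit2 holds 3 in 1945 bases, and Ifit3 and Ifitm2 hold none. A match is a description and not a binding site. The sites of the members whose level differed between TTP-AA and TTP, and the heptamer of Ifit1, read as follows, with the pentamer in capitals.
Rsad2, base 243 of the 3′UTR: ccagcatttcATTTAtatttgaatt
Rsad2, base 1343 of the 3′UTR: aatttggggtATTTActcacaaaag
Ifitm3, base 89 of the 3′UTR: tgtaacactcATTTAtctatccaca
Ifitm6, base 66 of the 3′UTR: ctagtaccgaATTTAgtatctttag
Ifit1, base 566 of the 3′UTR: ttctttcaatATTTAtatgctaaaa

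The deposited table of normalized counts holds values that the authors' model fitted for each gene and library, a condition term plus a replicate-number term on the log2 scale, with a residual SD of 2.84e-15. The observed spread between replicates is not in it. Fitted values summed to 2570292 to 12804501 per library. Each was divided here by a size factor of its library, between 0.415 and 2.12, to give a level. A condition's level is the geometric mean over its 3 libraries, and a log2 change compares 2 conditions as log2 of the ratio of their levels. Its error is the standard error (SE) in the deposited comparison tables, the adjusted p comes from the Wald test of the change over that SE with Benjamini-Hochberg adjustment over all genes tested, and a gene is called at an adjusted p under 0.05. The authors' version of DESeq2 shrinks fold changes towards 0 by default. The changes, folds and intervals below can therefore be too small, by amounts that can differ between genes. Zfp36, the check of the labels, had a level of 459.0 in GFP, 927.4 in TTP and 1535 in TTP-AA macrophages. The construct counts towards this level, but GFP macrophages carry no TTP construct, and the origin of their Zfp36 footprints was not tested. Ratios of this level are thus not ratios of the amount of construct. The log2 change of Zfp36 was 1.01 with TTP (SE 0.25, adjusted p = 0.0048) and 1.74 with TTP-AA (SE 0.25, adjusted p = 2.37e-09) over GFP. Between TTP-AA and TTP it was 0.73 (SE 0.25, adjusted p = 0.0395, or adjusted p = 0.0651 when the 3 comparisons were adjusted together). A difference in the amount of construct and one in its phosphorylation can therefore not be told apart here. The paper describes similar amounts of both proteins. Of 9 macrophage markers, 8 passed the filter on low values, and their summed level was 96085 in GFP, 76152 in TTP and 109259 in TTP-AA. The 9 markers of T cells, B cells, neutrophils, fibroblasts and epithelial cells that have a line summed to at most 2.07 for any of these cell types in any condition.

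**Figure D1:**
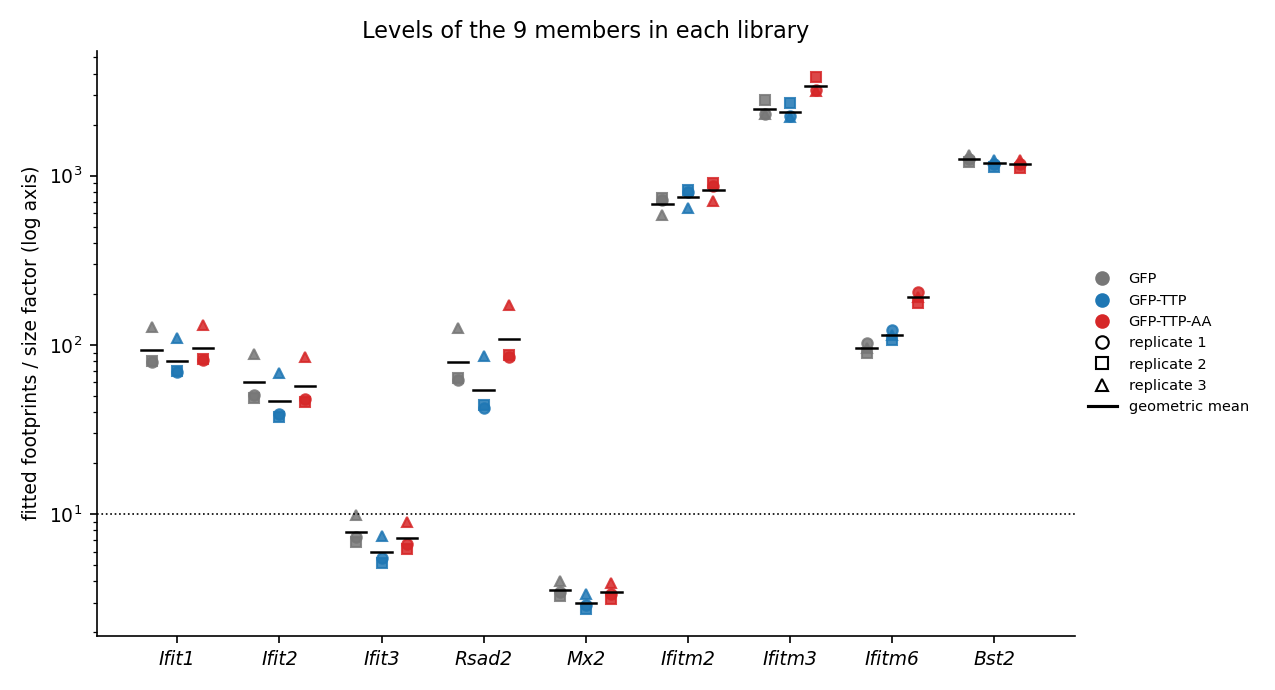
Level of 9 members (fitted footprints divided by the size factor of the library, log axis) in the 9 libraries, coloured by condition and shaped by replicate number, with the geometric mean as a bar and the filter at 10 as a dotted line. Ifitm3 is the highest in every library and Mx2 the lowest. In Rsad2, Ifit1 and Ifit2 replicate 3 (triangles) stands above replicates 1 and 2, an order that the fit makes the same in all 3 conditions.

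The members spanned a wide range of footprints. Per kilobase of coding sequence, Ifitm3 was the highest, with a level of 5946 in GFP, 5744 in TTP and 8133 in TTP-AA macrophages, above 98.5% of 9969 kept genes in GFP. Bst2 followed with 2423, 2272 and 2254, and Ifitm2 with 1553, 1727 and 1891. Then came Ifitm6 with 303.9, 362.2 and 604.9 per kilobase. Rsad2 (72.7, 50.0 and 99.4), Ifit1 (66.9, 58.0 and 69.1) and Ifit2 (42.5, 32.9 and 40.4) lay close together, and their order changed between the conditions. Ifit3, with at most 6.50, and Mx2, with at most 1.81 per kilobase, were the lowest. Bst2 and the IFITM genes thus had more footprints per kilobase than the IFIT genes in every condition, including the GFP macrophages without TTP.

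Sequence shared with other genes can bear on some of these levels, since mapping allowed up to 2 alignments per read. How such reads were counted was not tested. Of the stretches of 30 bases in the coding sequence of Ifit3, 78.7% are also in Ifit3b, and of those of Ifitm2, 81.0% are in other annotated genes such as Gm45717. The share was 35.8% for Ifitm3, 18.8% for Ifit1 (with Ifit1bl1 and Ifit1bl2) and 15.4% for Mx2 (with Mx1). Ifit2, Ifitm6, Rsad2 and Bst2 share 0 such stretches. The part of shared reads in the levels of Ifit3, Ifitm2, Ifitm3, Ifit1 and Mx2 was not tested.

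Rsad2 differed most between the mutant and the wild type. Its level in replicates 1, 2 and 3 was 61.6, 63.9 and 126 in GFP macrophages. It was 42.5, 43.9 and 86.4 in TTP macrophages and 84.6, 87.2 and 172 in TTP-AA macrophages. TTP was the lowest and TTP-AA the highest condition, and the fit makes this order the same for every replicate number. Replicate 3 of TTP lay just above replicate 1 of TTP-AA, so that the groups overlap. The log2 change between TTP-AA and TTP was 0.99 (SE 0.24, 95% interval 0.53 to 1.45, adjusted p = 0.000874), which is 1.99-fold. Against GFP it was -0.54 with TTP (SE 0.24, interval up to -0.08, adjusted p = 0.309) and 0.45 with TTP-AA (SE 0.24, interval -0.01 to 0.91, adjusted p = 0.37), neither of them called. In these bulk libraries, fewer cells that translate a gene and fewer footprints per cell cannot be told apart, and neither can less mRNA and less translation per mRNA.

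Ifitm6, a small IFITM gene of the mouse, was called in both comparisons of the mutant. Its level in replicates 1, 2 and 3 was 102, 89.1 and 96.3 in GFP, 122, 106 and 114 in TTP, and 204, 177 and 191 in TTP-AA macrophages. The 3 libraries of TTP-AA lay above all others, and those of TTP above those of GFP. In fitted values such a separation is common, with 25.6% of 10103 kept genes not overlapping between TTP and GFP, 26.9% between TTP-AA and GFP and 34.4% between TTP-AA and TTP, so that nothing is read from it here or for Ifitm3. Over GFP the log2 change with TTP-AA was 0.99 (SE 0.23, interval 0.55 to 1.44, adjusted p = 0.00141), or 1.99-fold. Over TTP it was 0.74 (SE 0.23, interval 0.30 to 1.18, adjusted p = 0.0159). With TTP over GFP it was 0.25 (SE 0.23, interval -0.19 to 0.70, adjusted p = 0.753).

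Ifitm3, the member known best for restricting influenza virus in endosomes, had the most footprints. Its level in replicates 1, 2 and 3 was 2326, 2790 and 2299 in GFP, 2253, 2694 and 2215 in TTP, and 3194, 3806 and 3139 in TTP-AA macrophages. GFP and TTP overlapped, and all 3 libraries of TTP-AA lay above them. The log2 change of TTP-AA over TTP was 0.50 (SE 0.15, interval 0.21 to 0.79, adjusted p = 0.0114). Over GFP it was 0.45 (SE 0.15, interval 0.16 to 0.74), with an adjusted p of 0.0623, and 0.0462 when the 3 comparisons were adjusted together. Between TTP and GFP it was -0.05 (SE 0.15, interval -0.34 to 0.24, adjusted p = 0.949).

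The third IFITM gene was not called. The level of Ifitm2 was 714, 740 and 584 in GFP, 796, 823 and 647 in TTP, and 873, 899 and 709 in TTP-AA macrophages. The groups overlapped, as replicate 3 was the lowest in each condition. Its log2 change was 0.13 between TTP-AA and TTP (SE 0.14, interval -0.15 to 0.41), 0.28 between TTP-AA and GFP (SE 0.14, interval 0.01 to 0.56, adjusted p = 0.336) and 0.15 between TTP and GFP (SE 0.14, interval -0.13 to 0.43). Whether Ifitm2 differs from Ifitm3 or Ifitm6 in its change was not tested.

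Ifit1 and Ifit2 were not called in any comparison. Ifit1, whose protein binds RNA that lacks cap methylation, had a level of 78.9, 80.5 and 127 in GFP, 68.7, 69.8 and 110 in TTP, and 81.8, 82.9 and 131 in TTP-AA macrophages. Its partner Ifit2 had 50.3, 48.3 and 88.7 in GFP, 39.1, 37.5 and 68.6 in TTP, and 48.1, 45.9 and 84.3 in TTP-AA macrophages. For both genes TTP was the lowest condition, but the 3 conditions overlapped, and replicate 3 was the highest library in each. The log2 change between TTP-AA and TTP was 0.25 for Ifit1 (interval -0.13 to 0.63, adjusted p = 0.483) and 0.30 for Ifit2 (interval -0.18 to 0.77, adjusted p = 0.511). Between TTP and GFP it was -0.20 for Ifit1 (interval -0.58 to 0.18) and -0.37 for Ifit2 (interval -0.84 to 0.11). Between TTP-AA and GFP it was 0.05 for Ifit1 (interval -0.33 to 0.43) and -0.07 for Ifit2 (interval -0.54 to 0.40). All of these intervals include 0, and between TTP-AA and TTP both also include the value of Ifitm3. Shrinkage can differ between these genes, so that a difference in their changes cannot be read from this.

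Bst2 stood nearly level across the conditions. It had 1249, 1200 and 1328 in GFP, 1174, 1125 and 1241 in TTP, and 1166, 1113 and 1233 in TTP-AA macrophages, and all groups overlapped. Its log2 change was -0.01 between TTP-AA and TTP (SE 0.19, interval -0.39 to 0.36, adjusted p = 0.981), -0.10 between TTP-AA and GFP (interval -0.48 to 0.27) and -0.09 between TTP and GFP (interval -0.47 to 0.28). Ifit3 and Mx2 were read from few footprints. Ifit3, a binding partner of other IFIT proteins, had levels of 6.80 to 9.87 in GFP, 5.14 to 7.45 in TTP and 6.19 to 8.99 in TTP-AA libraries. Mx2 had 3.26 to 4.03, 2.75 to 3.38 and 3.17 to 3.91, and no change of it was tested at this depth.

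Over the 7 tested members, the median log2 change was -0.09 between TTP and GFP, where 0 were called against 2.10% of 9938 genes. At an unadjusted Wald p under 0.05, it was 1 of the 7, Rsad2, against 11.3% of all genes. Between TTP-AA and GFP the median was 0.28 and 1 member, Ifitm6, was called, against 3.02% of 10103 genes, while 3 of the 7 had an unadjusted p under 0.05, against 14.2%. Between TTP-AA and TTP the median was 0.30 and 3 members, Rsad2, Ifitm3 and Ifitm6, were called, all of them higher, against 10.3% of genes, with 565 higher and 471 lower among them. These 3 called members were also the members with an unadjusted p under 0.05, against 22.1% of genes. The median change of all genes was at most 0.0044 in any comparison. Each pair of these comparisons shares the libraries of a condition, so that they are not independent of each other. TTP against GFP and TTP-AA against TTP both rest on the same TTP libraries. The summed macrophage markers given above were also lowest in TTP and highest in TTP-AA. Lyz2 alone makes up most of that sum (64036 in GFP, 46032 in TTP and 71365 in TTP-AA), and the single markers differ. Emr1 (3663, 2292 and 5340) and Csf1r (6887, 6135 and 7736) had the order of Lyz2, lowest in TTP and highest in TTP-AA. Cd68 (6485, 5964 and 6812) and Spi1 (2374, 2169 and 2788) had it as well. Itgam (2968, 3190 and 3188) and Cd14 (9538, 10297 and 11914) were lowest in GFP, and Fcgr1 (129, 67.2 and 110) was highest there. The part of these markers in the changes of Rsad2, Ifitm3 and Ifitm6 was not tested.

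**Figure D2:**
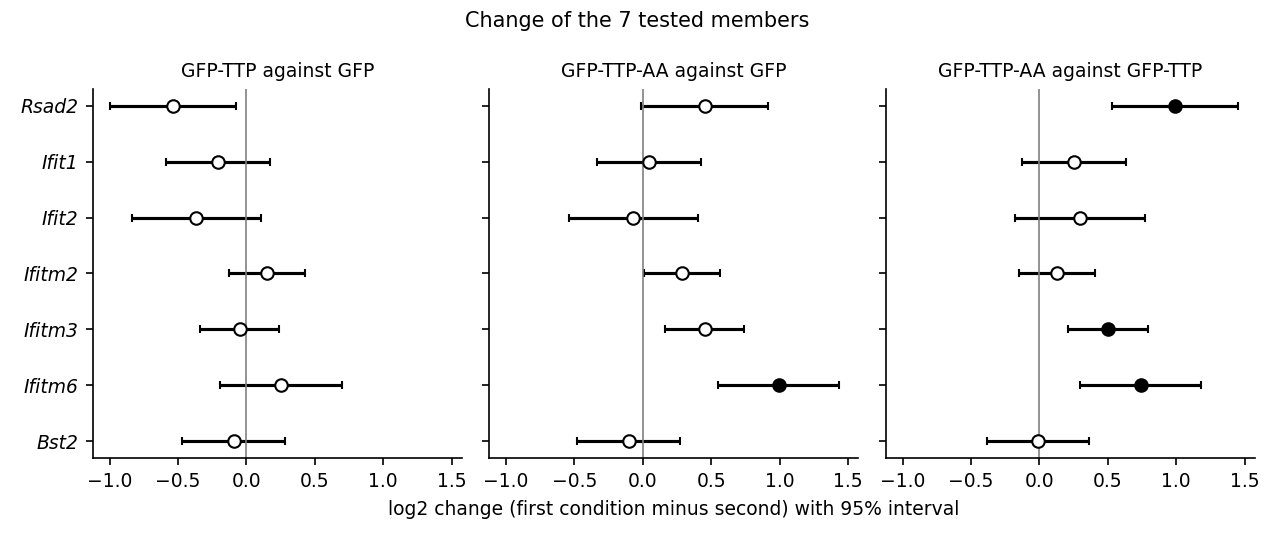
Log2 change of the 7 tested members in the 3 comparisons (first condition minus second), with the 95% interval from the SE, filled where the adjusted p was under 0.05. Filled points are Ifitm6 against GFP, and Rsad2, Ifitm3 and Ifitm6 between TTP-AA and TTP.

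Several members differed between replicate numbers as far as between conditions. On the log2 scale, Rsad2 was 1.00 higher in replicate 3 than in the mean of replicates 1 and 2, which is 2.00-fold, and its range over replicate numbers of 1.02 was as wide as its range over conditions of 0.99. The difference of replicate 3 was 0.84 for Ifit2, 0.67 for Ifit1 and 0.49 for Ifit3. In all kept genes its 95th percentile was 0.44, and the values of Rsad2, Ifit2 and Ifit1 exceeded those of 99.7%, 99.3% and 98.5% of them. Mx2 followed with 0.26 and Bst2 with 0.11. The IFITM genes did not share this, with 0.01 for Ifitm6, -0.15 for Ifitm3 and -0.32 for Ifitm2. As a description, Rsad2 and the IFIT genes were thus high in replicate 3, the IFITM genes near or below 0, and Mx2 and Bst2 in between. The library date behind each replicate number was not given.

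The range over replicate numbers was wider than that over conditions for 5 of the 7 kept members, and for 53.5% of all kept genes. Ifit2 had 0.88 against 0.37, and Ifit1 0.68 against 0.25. Ifitm6 and Ifitm3 were the exceptions, with 0.20 against 0.99 and 0.28 against 0.50. The condition range of Ifitm6 exceeded that of 98.0% of kept genes while its replicate range exceeded that of 28.9%. The replicate term is fitted together with the condition, so that the log2 change between conditions has the same value for every replicate number, and the agreement of the replicates cannot be read from these values.

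**Figure D3:**
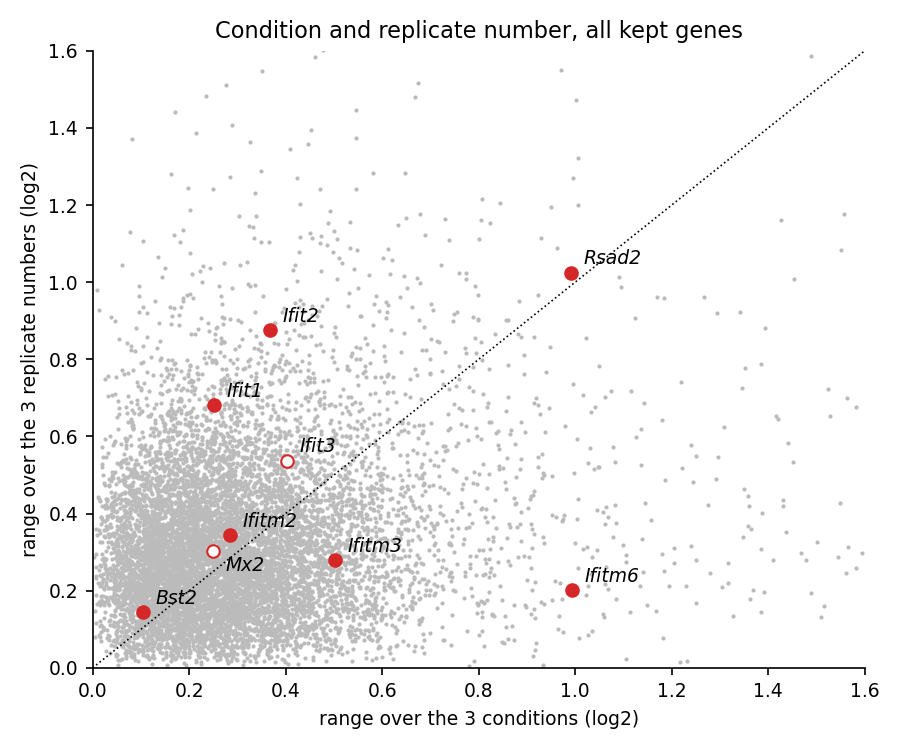
Range of the log2 level over the 3 replicate numbers against its range over the 3 conditions, for kept genes (grey, 66 genes lie beyond the axis limit of 1.6) and 9 members (red, open where below the filter). Rsad2 lies on the diagonal near 1, Ifit1 and Ifit2 above it, Ifitm3 and Ifitm6 below it, and Bst2 near the origin.

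The genes with the pattern nearest to a member over the 9 libraries were found by the Euclidean distance between mean-centred log2 levels. The nearest to Rsad2 were Oasl2, another interferon-stimulated gene (distance 0.33), Ptafr, the receptor of platelet-activating factor (0.39), and Ripk2, a kinase downstream of NOD receptors (0.47), against a length of 1.87 of the Rsad2 pattern itself. Those of Ifitm6 were Sirpb1c (0.34), Gm5483 (0.47) and Bbc3, which encodes the pro-apoptotic protein PUMA (0.47), against a length of 1.29. Those of Ifitm3 were 2210404O09Rik (0.12), Smad1 (0.13) and Slc6a12 (0.14), against a length of 0.78. Among the members themselves Ifit1 and Ifit2 were the closest pair (0.34), and Rsad2 and Ifitm2 the farthest apart (2.18).

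Some of the other genes next to the members were called. Of these, only Cmpk2 shared a call with its member, Rsad2, between TTP-AA and TTP. Cmpk2, a mitochondrial nucleotide kinase and the only other kept gene within 100 kb of Rsad2, lies 12752 bases from it. Its log2 change was -0.95 between TTP and GFP (SE 0.25, adjusted p = 0.0115), 0.40 between TTP-AA and GFP (adjusted p = 0.498) and 1.35 between TTP-AA and TTP (SE 0.25, adjusted p = 4.93e-06). Ch25h, which makes 25-hydroxycholesterol, lies 75530 bases from Ifit2, and fell by 1.09 with TTP over GFP (SE 0.25, adjusted p = 0.0016) and rose by 0.97 between TTP-AA and TTP (adjusted p = 0.00252). Lipa, between Ch25h and Ifit2, had 0.07 and -0.13 in the same comparisons and was not called. Of the other neighbours of the IFITM genes, only Bet1l was called in any comparison (0.71 between TTP-AA and TTP, adjusted p = 0.0423), and the 10 kept neighbours of Bst2 had adjusted p-values of at least 0.12 in all 3 comparisons.

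The other genes of the interferon pathway give the setting of these values. Of 19 interferon ligands and receptors 5 have a line and were tested. Ifnb1 had a level of 13.7, 12.1 and 15.2 in GFP, TTP and TTP-AA, and was not called (0.33 between TTP-AA and TTP, SE 0.24, adjusted p = 0.442). On the log2 scale Ifnb1 was 1.23 higher in replicate 3 than in the mean of replicates 1 and 2. Of these 5 genes, 2 lay above the 95th percentile of all kept genes in this difference. The receptor chain Ifnar1 rose with TTP-AA over TTP by 0.73 (SE 0.16, adjusted p = 0.000272) and over GFP by 0.56 (adjusted p = 0.021), and Ifnar2 rose over TTP by 0.47 (SE 0.15, adjusted p = 0.0235). After subtraction of the median of their chromosome, 0 of the 5 were called over GFP and 1 over TTP. Of the 15 tested signalling genes 3 were called between TTP-AA and TTP and all were higher, the transcription factor subunit Irf9 (1.16, adjusted p = 0.000149), the kinase Jak2 (0.68, adjusted p = 0.0344) and Usp18, an inhibitor of the receptor (1.11, adjusted p = 0.000212). Of all genes, 10.3% were called between TTP-AA and TTP. With adjustment over the 3 comparisons together 2 of the 15 signalling genes were called. Usp18 was the only one of 14 called between TTP and GFP, where it fell by 1.43 (adjusted p = 1.16e-06).

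Of 37 other interferon-stimulated effectors, 34 were tested between TTP-AA and TTP, and 20 rose and 0 fell, with a median log2 change of 0.72, where 10.3% of all genes were called. Between TTP and GFP 12 of 33 fell and 0 rose (median -0.51), where 2.10% of all genes were called. Between TTP-AA and GFP 4 of 34 rose and 0 fell (median 0.12), where 3.02% of all genes were called. The largest changes between TTP-AA and TTP were those of Oasl1, a relative of the oligoadenylate synthetases (2.52, SE 0.23, adjusted p = 1.55e-24), the RNA sensor Ifih1 (2.42, SE 0.25, adjusted p = 4.89e-20), Xaf1 (1.61), Rtp4 (1.56) and the guanylate-binding protein Gbp3 (1.55). The members' medians of -0.09, 0.28 and 0.30 lay nearer to 0 in the comparisons with TTP than those of this list, but a difference between the lists was not tested. Of these 34 genes, 12 lay above the 95th percentile of all kept genes in replicate 3, as did Rsad2, Ifit1 and Ifit2 among the members. The IFIT and IFITM relatives with a line (Ifitm1, Ifitm5, Ifitm7 and Ifitm10) had levels of at most 1.46 and were not tested.

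**Figure D4:**
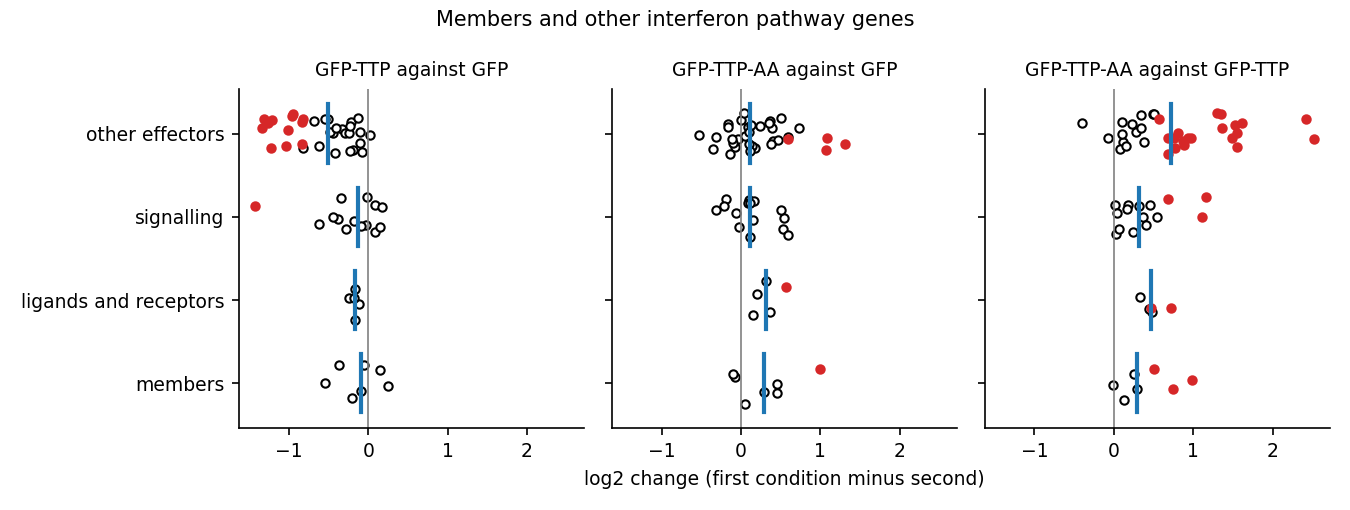
Log2 change (first condition minus second) of the 7 tested members and of the other interferon pathway genes that were tested, red where the adjusted p was under 0.05, with the median of each list as a bar. Between TTP-AA and TTP, 3 members and 20 other effectors are red, all to the right of 0, and between TTP and GFP, 0 members and 12 other effectors are red, all to the left.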

How the data were processed

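RiboSeq libraries of 9 samples were grouped by the construct and replicate number in their titles. The authors isolated footprints with the ARTseq kit, mapped them to mm10 with TopHat with up to 2 alignments per read and fitted counts per gene with DESeq2 1.6.3 (library date plus condition). HTSeq and Trim Galore stand in the submitters' processing notes, which name TopHat2 2.0.12. The deposited signal in the level table is the fitted value, size factor times fitted mean. From the authors' deposited comparison tables only the SE of the log2 fold change was used here. Their other columns hold the mean count, fold change, statistic and p-values. The authors' version of DESeq2 shrinks fold changes by default, so that these can understate a change, and the largest SE was 0.25. The tables give no total of reads, and depth enters through the SE.

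Size factors were the median of ratios over genes with a mean of at least 10. Genes with a mean level of at least 10 were kept, with no pseudocount as the table has 0 zeros. Genes tested had an SE (9938, 10103 and 10103). The Wald p was two-sided, and the steps were tested on simulated data. Of the 16921 identifiers, 16836 have a position in GENCODE vM21 on GRCm38, the build of mm10. Motifs, lengths and shared stretches came from principal transcripts, the promoters from RefSeq. Named genes are the members, Zfp36, the 3 nearest genes per member, up to 5 called genes per pathway list and neighbours within 100 kb. The members, the lists and the tests were chosen with earlier results of these data known. Replicates are separate libraries, and no source says whether they came from separate cultures, so that the error may be technical. Alternatives were other filters, centring, chromosome medians, joint adjustment, pseudocounts and arithmetic means. Python 3.11.15, numpy 2.4.6, pandas 2.3.3 and scipy 1.17.1 were used.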

Additional observations from a re-analysis of the deposited data

How the results depend on the processing

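No paired analysis was possible because the deposited levels are fitted values that already hold the replicate term, and for the same reason no replicate could be left out: every replicate number gives the same log2 change. The counts of called members, 0 for GFP-TTP against GFP, 1 for GFP-TTP-AA against GFP and 3 for GFP-TTP-AA against GFP-TTP, were unchanged with no filter, with a mean level of at least 50, with centring on the median of all kept genes and with the chromosome median subtracted. With adjustment over the 3 comparisons together they were 0, 2 and 3, where the added call was Ifitm3 over GFP (adjusted p = 0.0462), and the call of Zfp36 for GFP-TTP-AA against GFP-TTP was lost (adjusted p = 0.0651). Subtraction of the chromosome median turned 2 values near 0, Ifit1 between GFP-TTP-AA and GFP to -0.0590 and Bst2 between GFP-TTP-AA and GFP-TTP to 0.000401, neither called. Of 230 values of single genes under these settings, 223 kept their direction and side of the threshold or moved by less than the error. All 30 arithmetic means of levels lay within the spread over libraries, as a mean of these libraries must. Fitted values also give nearly the same log2 change with arithmetic means, so that this setting is no test. The cause of the shifts under the other settings was not tested. Few footprints limit Ifit3 and Mx2. Any shrinkage can understate the fitted changes of all members, by amounts that can differ between genes. How large it was could not be settled here.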
